A study of Mus musculus with 15 samples.

Results

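Notch signalling ends in the nucleus on a short list of target genes, and 9 genes that either serve as such targets or modify the pathway were followed through the first days after birth in sorted mouse kidney cells. They were *Hes1*, *Hes5*, *Hey1*, *Hey2*, *Heyl*, *Nrarp*, *Lfng*, *Mfng* and *Rfng*. A gene was taken from the array where a probe set mapped to its symbol and to no other, and each of the 9 had exactly 1 such probe set, so that no second probe set could be set beside it. The array held 19938 genes named in this way. Of these, 11885 passed a filter on low values (above the median of all values, 6.86 on the log2 scale, in at least 3 arrays), and 8 of the 9 genes were among them. *Mfng* did not pass. *Lfng* passed through only 3 arrays, P3 replicate 3 and P4 replicates 2 and 3, so its entry into the tests rested on the days on which it was high.

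When a Delta or Jagged ligand on one cell binds a Notch receptor on its neighbour, the receptor is cut by ADAM proteases and then by gamma-secretase, and its intracellular part joins the DNA-binding protein RBPJ to switch on target genes. *Hes* and *Hey* genes, the best known targets, encode basic helix-loop-helix proteins that repress transcription, while *Nrarp* encodes a small ankyrin repeat protein that feeds back on the intracellular part of the receptor. The Fringe genes *Lfng*, *Mfng* and *Rfng* encode glycosyltransferases that add sugar to Notch in the Golgi and so alter which ligands it answers to. In the kidney, Notch signalling acts as nephron progenitors leave the cap mesenchyme and build epithelium, and it is known for its part in forming the proximal nephron.

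The cells came from CD-1 mice carrying the reporter Tg(Crym-EGFP)82Gsat, a bacterial artificial chromosome in which sequence of *Crym* drives green fluorescent protein, and all groups shared it. Shortly before birth, at embryonic day 18.5, pups were moved to CD-1 foster mothers, and kidneys were taken at postnatal day 0, 1, 2, 3 or 4 (P0 to P4), dissociated with trypsin and sorted by fluorescence. Each of the 15 samples was a pool of about 4 kidneys, the sex was labelled unknown, and there were 3 pools for each day. The labels call the 12 pools of P0 to P3 cap mesenchyme, that is, nephron progenitors around the ureteric bud tips. They call the 3 pools of P4 renal vesicle, the earliest epithelium of the nephron, although the overall design text names cap mesenchyme for every day. Age and labelled compartment change together at P4 and cannot be told apart. Sorting was on green fluorescent protein and not on *Crym* RNA, and how the gate was set is not stated. Since nothing ties the pools of a day to different litters, p-values measure the spread between these pools, which may be technical.

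Array medians lay between 6.80 and 6.92. Replicate 1 of each day (the 5 first pools) stood apart from the other 10 along the main axis of a principal component analysis (35.3% of the variance), and P3 replicate 3 was the outlying pool along the third axis (11.2%). *Hey1* averaged 0.92 lower in the first pools than in the others and *Hey2* 0.98 lower. Same-numbered pools deviated together, so comparisons of pairs of days are also given with the replicate number as a block. The contrast of P4 with all earlier days, the F test and the bend are given with the first pools as a block. *Crym* itself had a day mean of 11.91 at P0, 10.43 at P3 and 7.80 at P4, and *Six2*, which keeps progenitors undifferentiated, had 11.00, 9.73 and 8.44. *Lhx1*, a transcription factor of the renal vesicle, had 7.14, 9.86 and 10.25. Over the 10 cap mesenchyme markers the mean value was 9.22 to 10.43 in the pools of P0 to P3 and 8.18 to 8.28 in those of P4. Over the 10 renal vesicle markers it was 7.33 to 9.50 and 9.21 to 9.81, and the upper end of the first range comes from the later cap mesenchyme pools. In such pools, fewer cells of a type and less RNA per cell cannot be told apart.

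The sequence before the start site of 5 of the 9 genes could be read from RefSeq (mouse build GRCm38.p6), as 250 bases before to 50 bases after the start. *Hes1*, *Hey1*, *Heyl* and *Mfng* have no entry. The stretches of *Nrarp*, *Hey2* and *Lfng* are shown because these genes changed with the days, and that of *Hes5* because it is the classical target with an entry here. Each runs 5′ to 3′ on the strand of the gene, and capitals mark the core of the RBPJ motif (TGGGAA, or TTCCCA where it lies on the opposite strand) and the E-box CACGTG, a sequence that helix-loop-helix proteins can bind.
Nrarp, chr2:25180508-25180807 (+): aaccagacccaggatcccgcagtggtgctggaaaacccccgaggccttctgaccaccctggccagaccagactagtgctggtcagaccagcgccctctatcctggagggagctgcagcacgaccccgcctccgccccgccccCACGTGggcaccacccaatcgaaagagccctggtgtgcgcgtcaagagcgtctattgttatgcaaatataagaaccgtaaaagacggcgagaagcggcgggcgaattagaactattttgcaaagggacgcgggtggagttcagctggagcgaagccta
Hey2, chr10:30842734-30843033 (-): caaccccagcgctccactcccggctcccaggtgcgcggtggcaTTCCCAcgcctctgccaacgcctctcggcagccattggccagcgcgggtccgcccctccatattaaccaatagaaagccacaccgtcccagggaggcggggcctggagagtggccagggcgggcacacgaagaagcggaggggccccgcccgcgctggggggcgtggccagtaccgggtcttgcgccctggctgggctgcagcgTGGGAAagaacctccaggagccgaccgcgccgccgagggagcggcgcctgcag
Lfng, chr5:140607091-140607390 (+): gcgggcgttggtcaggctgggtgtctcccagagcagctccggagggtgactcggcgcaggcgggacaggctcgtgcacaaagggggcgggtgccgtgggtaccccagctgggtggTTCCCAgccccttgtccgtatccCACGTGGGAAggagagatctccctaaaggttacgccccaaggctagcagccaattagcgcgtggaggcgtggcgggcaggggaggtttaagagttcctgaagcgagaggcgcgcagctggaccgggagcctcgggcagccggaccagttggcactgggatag
Hes5, chr4:154960673-154960972 (+): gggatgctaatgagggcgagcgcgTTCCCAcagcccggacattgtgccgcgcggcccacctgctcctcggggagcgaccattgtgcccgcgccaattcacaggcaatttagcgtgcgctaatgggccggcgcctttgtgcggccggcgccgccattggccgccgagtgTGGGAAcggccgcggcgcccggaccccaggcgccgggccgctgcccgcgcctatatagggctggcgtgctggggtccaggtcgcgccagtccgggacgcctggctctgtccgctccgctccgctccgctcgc
The *Hes5* stretch held the RBPJ core at 2 places, beginning 82 and 226 bases before the start and facing opposite ways. *Hey2* held it 3 and 207 bases before the start, again in both orientations. In *Lfng* it lay 108 and 135 bases before the start, and the nearer match overlapped an E-box to form a single run of capitals. *Nrarp* held an E-box 108 bases before the start and no RBPJ core, and *Rfng* (not shown) held neither. Of 32851 promoters of the same length, 25.6% held the RBPJ core on either strand, 3.79% held it at 2 or more places, 7.15% held the E-box, 1.67% held both, and 0.107% held the overlapping run. A match describes letters in this window and is not a measured binding site.

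The first question was when each gene changed over the 5 days. *Nrarp* and *Hey2* were the genes that passed against P0 by P3, and *Hey1* passed at P4. With the replicate number as a block, *Hey1* passed from P2 on and *Lfng* passed at P4. *Hes1*, *Hes5*, *Heyl* and *Rfng* passed against P0 on no day, with the block or without. The 4 comparisons with P0 share its 3 pools. Whether one gene set in before another was not tested.

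**Figure D1:**
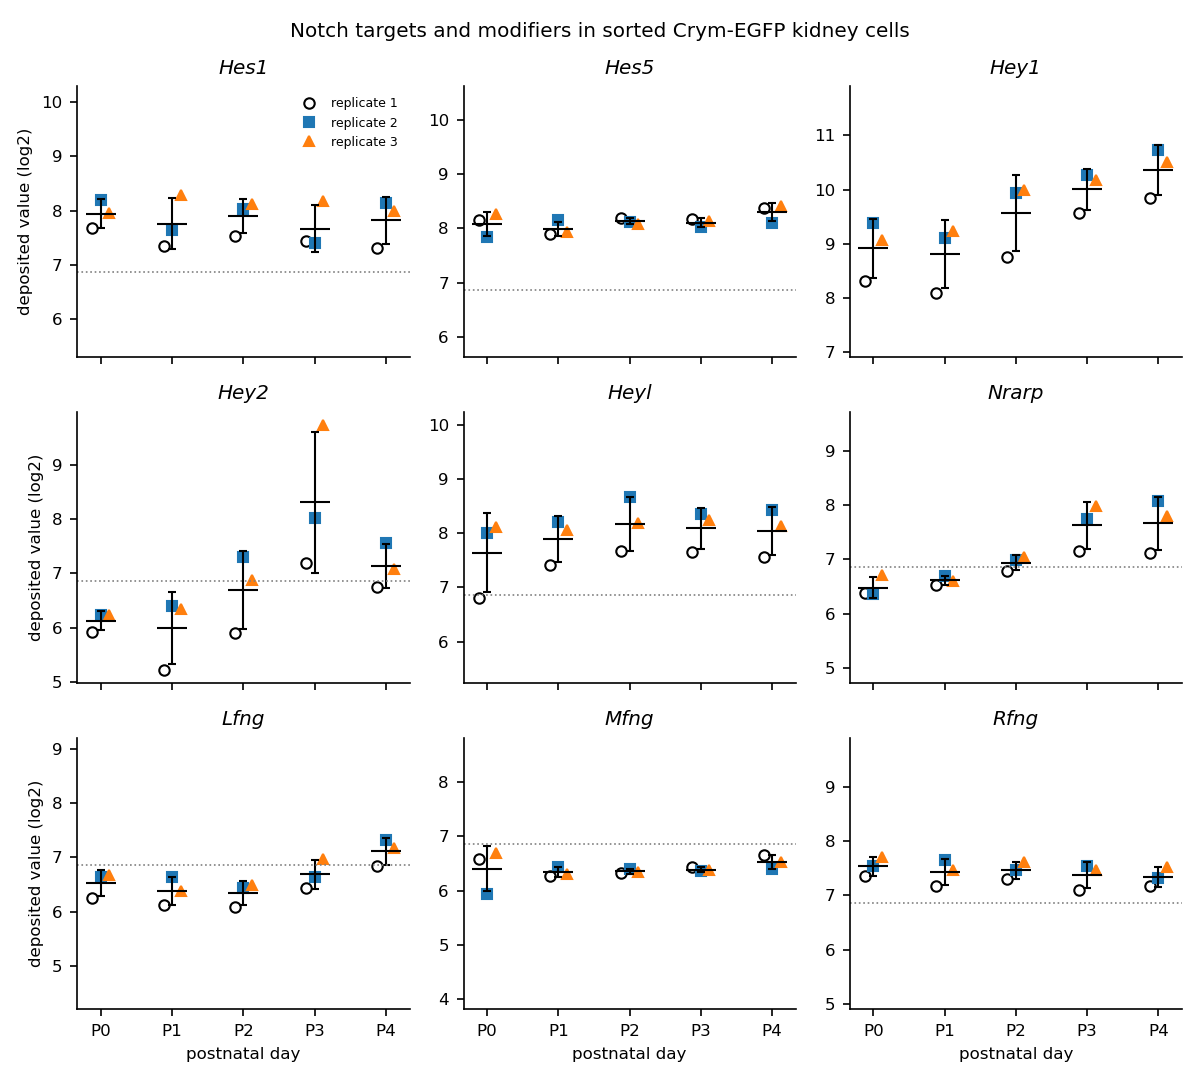
Deposited log2 value (vertical axis) of each of the 9 genes in each pool against postnatal day (horizontal axis), with symbols for the replicate, a long bar for the day mean and whiskers for 1 SD (n = 3). Each panel spans the same number of log2 units at its own height, and the dotted line is the median of all values (6.86). All P3 and P4 pools of *Hey1* and *Nrarp* stand above their P0 pools, *Hey2* is highest at P3 with replicate 3 (9.73) above the others, and *Lfng* has its highest mean at P4 (7.11).

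At P1 none of the 8 genes tested differed from P0 (background 0% of all genes, and 0.168% with the replicate block, where again none of the 8 passed). In limma 0 of the 8 genes had even an unadjusted p under 0.05, while 238 of all 11885 genes did. At P2 the count was 0 of 8 (background 0.0337%), also 0 at an unadjusted p under 0.05, and with the replicate block 1 of 8 passed (background 0.438%). At P3 there were 2 of 8 (background 2.18%) and with the block 3 of 8 (background 6.48%). At P4 there were 2 of 8 (background 5.63%) and with the block 3 of 8 (background 11.1%). *Nrarp*, *Hey2* and *Lfng* were above the median of all values in no P0 or P1 pool. They entered the tests through later days on which they were high, so the P3 and P4 counts are given only as a description. With no filter on low values *Nrarp* alone passed, 1 of 9 at P3 (background 1.1%) and 1 of 9 at P4 (background 3.26%). The median difference from P0 over the 8 genes was -0.11, 0.25, 0.30 and 0.49 on P1, P2, P3 and P4, while the median over all genes tested lay between -0.02 and 0.00. The 8 genes hold *Nrarp*, *Hey2* and *Lfng* and leave out *Mfng*, so these medians too are given only as a description.

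*Nrarp*, the feedback inhibitor (probe set 10469936), was higher at P3 and P4 than at P0. Its values in replicates 1, 2 and 3 were 6.37, 6.36 and 6.71 at P0 and 6.54, 6.70 and 6.61 at P1. They were 6.78, 6.99 and 7.04 at P2, then 7.15, 7.75 and 7.98 at P3 and 7.13, 8.07 and 7.80 at P4. From P2 on every pool lay above every P0 pool, whereas P3 and P4 overlapped throughout. *Nrarp* was above the median of all values in 8 of 15 arrays, none of them of P0 or P1. It thus entered the tests through the days on which it was high. The gene rose 2.21-fold from P0 to P3 (log2 difference 1.15, SE 0.23, limma adjusted p = 0.017, and 4.6e-04 with the replicate block). This call was lost without P0 replicate 1 or 2 or P3 replicate 2 or 3 (adjusted p up to 0.089) and in a fit of P0 and P3 alone (0.071), though with the block it held in all 15 fits that leave out 1 pool. From P0 to P4 it rose 2.27-fold (1.19, SE 0.23, adjusted p = 0.0056), a call that held whichever pool was left out. The day means ran P0 (6.48), P1 (6.62), P2 (6.94), P3 (7.63) and P4 (7.67), with SDs of 0.08 to 0.49 (n = 3). By P2 the mean had covered 38.6% of the distance from P0 to P4 and by P3 96.7%. The neighbours P3 and P4 differed by 0.04 (95% interval -0.46 to 0.53). The step from P2 to P3 was 0.69 and did not pass (adjusted p = 0.52, and 0.053 with the replicate block).

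*Hey1*, a repressor related to the *Hes* proteins (probe set 10497203), had the largest P4 difference from P0 of the 8 genes tested and differed more between the first pools and the rest than between neighbouring days. In replicates 1, 2 and 3 it read 8.32, 9.38 and 9.07 at P0 and 8.09, 9.10 and 9.23 at P1. It read 8.76, 9.94 and 10.00 at P2, 9.58, 10.27 and 10.18 at P3, and 9.84, 10.73 and 10.51 at P4. Replicate 1 was the lowest pool on every day, and the pools of P0 and P4 did not overlap. Counted from the P0 pool with the same number, the P2 pools stood 0.44, 0.56 and 0.93 higher, the P3 pools 1.26, 0.89 and 1.11 higher and the P4 pools 1.52, 1.36 and 1.44 higher. The rise from P0 to P4 was 2.71-fold (log2 difference 1.44, SE 0.39, adjusted p = 0.045, and 2.7e-06 with the replicate block). Without the block that call was lost on leaving out any of 11 pools, all but P1 replicate 1, P2 replicate 1, P3 replicate 1 and P4 replicate 1 (adjusted p up to 0.18), and with it the call held in all 15 such fits. The unblocked call also ended with arrays centred on the median (adjusted p = 0.078), with no filter on low values (0.063) and with a stricter filter (0.055).

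At P2 *Hey1* stood 0.64 above P0 (SE 0.39, adjusted p = 1.00). With the replicate block the same difference passed (SE 0.13, adjusted p = 0.045), but it no longer did without any of 11 pools (up to 0.23), those being every P0 and P2 pool, P1 replicates 1 and 2, P3 replicate 2 and P4 replicates 1 and 2. Within replicates 2 and 3 alone the difference at P2 was 0.74 (adjusted p = 0.26). At P3 it was 1.09 (adjusted p = 0.25, and 9.9e-05 with the block, held in all 15 fits). Within replicates 2 and 3 it was 1.00 at P3 (adjusted p = 0.0051) and 1.40 at P4 (adjusted p = 2.5e-04). The order of the day means was P1 (8.81), P0 (8.92), P2 (9.56), P3 (10.01) and P4 (10.36), with SDs of 0.38 to 0.70 (n = 3). The neighbours P1 and P0 differed by less than the spread between their pools. With the replicate block the step from P1 to P2 passed (0.76, adjusted p = 0.011, lost without P1 replicate 1 or 2 or P2 replicate 2 or 3, up to 0.090), and the later steps of 0.44 and 0.35 did not (adjusted p = 0.14 and 0.19).

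**Figure D2:**
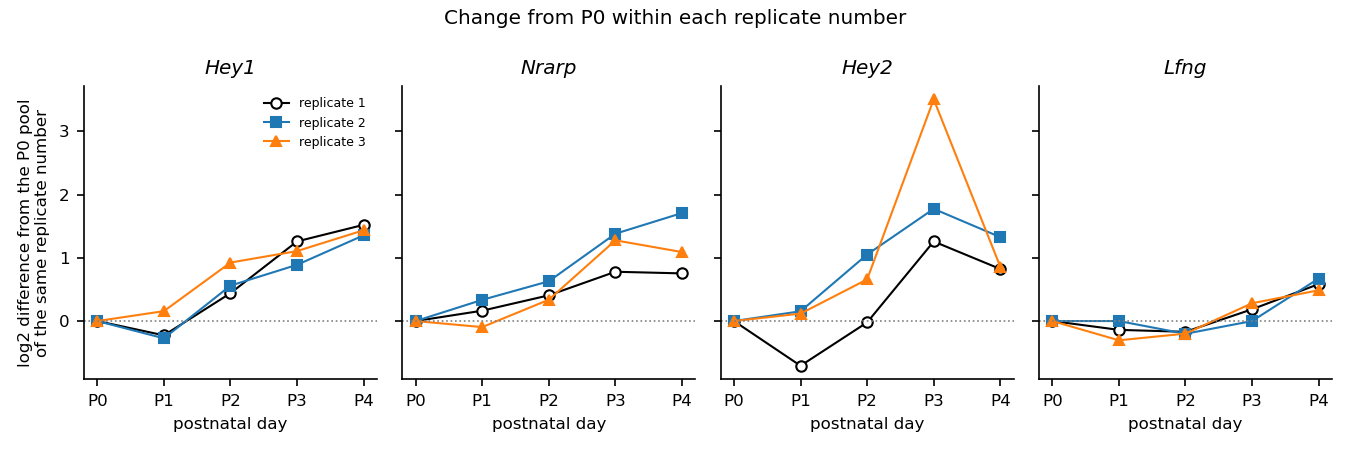
Log2 difference from the P0 pool with the same replicate number (vertical axis) against postnatal day (horizontal axis) for *Hey1*, *Nrarp*, *Hey2* and *Lfng*, with 1 line for each replicate number. The 3 *Hey1* lines end between 1.36 and 1.52 at P4, the *Hey2* line of replicate 3 peaks at 3.51 on P3, and the *Lfng* lines stay at or below 0 until P2.

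*Hey2*, a close relative of *Hey1* (probe set 10368556), had its highest day mean at P3. Its values in replicates 1, 2 and 3 were 5.93, 6.24 and 6.22 at P0, 5.22, 6.40 and 6.34 at P1, and 5.91, 7.29 and 6.88 at P2. At P3 they were 7.19, 8.02 and 9.73, and at P4 6.75, 7.57 and 7.08. Every pool of P3 and of P4 lay above every P0 pool, and in each replicate number the P3 pool was the highest of the 5. The gene was above the median of all values in 7 of 15 arrays, none of them of P0 or P1, so its lower values are those of a dim probe set and it entered the tests through the days on which it was high.

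The rise of *Hey2* from P0 to P3 was 4.54-fold (log2 difference 2.18, SE 0.52, adjusted p = 0.046). That call was lost without any of 12 pools (adjusted p up to 0.15), the exceptions being P1 replicate 1, P2 replicate 1 and P3 replicate 1. It was lost as well with no filter on low values (0.069), quantile normalization (0.060), arrays centred on the median (0.068) and a fit of P0 and P3 alone (0.15). With the replicate block it passed (adjusted p = 0.0013) and held in all 15 fits. P3 replicate 3 set much of the size, since without it the difference was 1.47, or 1.54 with the block (adjusted p = 1.8e-04). The step from P2 to P3 was 1.62 (adjusted p = 0.47, and 0.031 with the block), a blocked call lost without P0 replicate 2 or any P2 pool (up to 0.20). At P4 the gene stood 1.00 above P0 (adjusted p = 0.44, 0.080 with the block, and 0.031 in a fit of P0 and P4 alone). It stood 1.18 below P3 (95% interval of the difference -2.30 to -0.05, adjusted p = 0.61, and 0.087 with the block). With the first pools as a block and P3 replicate 3 left out, a setting chosen after seeing the data, the P4 difference from P0 passed (1.00, adjusted p = 9.9e-04) and that from P3 did not (-0.60, adjusted p = 0.14). The day means ran P1 (5.99), P0 (6.13), P2 (6.69), P4 (7.14) and P3 (8.31), with SDs from 0.18 at P0 to 1.30 at P3 (n = 3). Neighbours in that order either overlapped or did not pass a test without a block.

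*Lfng*, the Fringe enzyme known best from somite segmentation (probe set 10527012), had its highest day mean at P4. In replicates 1, 2 and 3 it read 6.26, 6.64 and 6.68 at P0, 6.12, 6.64 and 6.38 at P1, and 6.09, 6.44 and 6.48 at P2. It read 6.44, 6.64 and 6.96 at P3, and 6.84, 7.32 and 7.17 at P4. The P4 pools lay above every P0, P1 and P2 pool, and P4 replicate 1 lay below P3 replicate 3. The difference of P4 from P0 was 0.58 (SE 0.19, adjusted p = 0.11, and 0.0020 with the replicate block, held in all 15 fits). These fits kept the filter as set on all 15 arrays, so *Lfng* stayed in without any of its 3 arrays above the median. The difference of P3 from P0 was 0.16 (adjusted p = 0.92, and 0.48 with the block). The last step, from P3 to P4, was 0.43 (adjusted p = 0.61). With the block it passed at 0.042 but no longer did without any of 12 pools (up to 0.19), all but P1 replicates 2 and 3 and P3 replicate 3.

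The bend, defined as the mean of P1, P2 and P3 less the mean of P0 and P4, asked on which side of the middle days a change lay. Of the 8 genes none passed (background 0.833%), with 1 at an unadjusted p under 0.05 in limma. With the first pools as a block *Lfng* alone passed (1 of 8, background 2.36%), at -0.35 (SE 0.07, adjusted p = 0.0096). The call held in all 15 fits that leave out 1 pool, each with the filter as set on all arrays. A value below 0 places more of a rise late. Since *Lfng* entered the tests through its late high arrays, this count is given only as a description. With no filter and no block its bend had a limma adjusted p of 0.59, and the blocked fit was not run without the filter. The bend of *Nrarp* was -0.01 and that of *Hey2* 0.36, and neither passed. Between neighbouring days none of the 8 genes passed from P1 to P2 (background 0.0841%), from P2 to P3 (background 0.143%) or from P3 to P4 (background 1.49%). In limma 0, 2 and 2 of them had an unadjusted p under 0.05. With the replicate block 1 of 8 passed on each of these steps (backgrounds 0.959%, 1.21% and 3.55%), namely *Hey1*, then *Hey2*, then *Lfng*. Each of those 3 calls depended on single pools as given above. *Hey2* and *Lfng* entered the tests through days on which they were high, so the counts for these steps are only a description. With no filter and no block, limma adjusted p was 0.72 for *Hey2* from P2 to P3 and 0.79 for *Lfng* from P3 to P4. The blocked fit of these steps was not run without the filter.

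**Figure D3:**
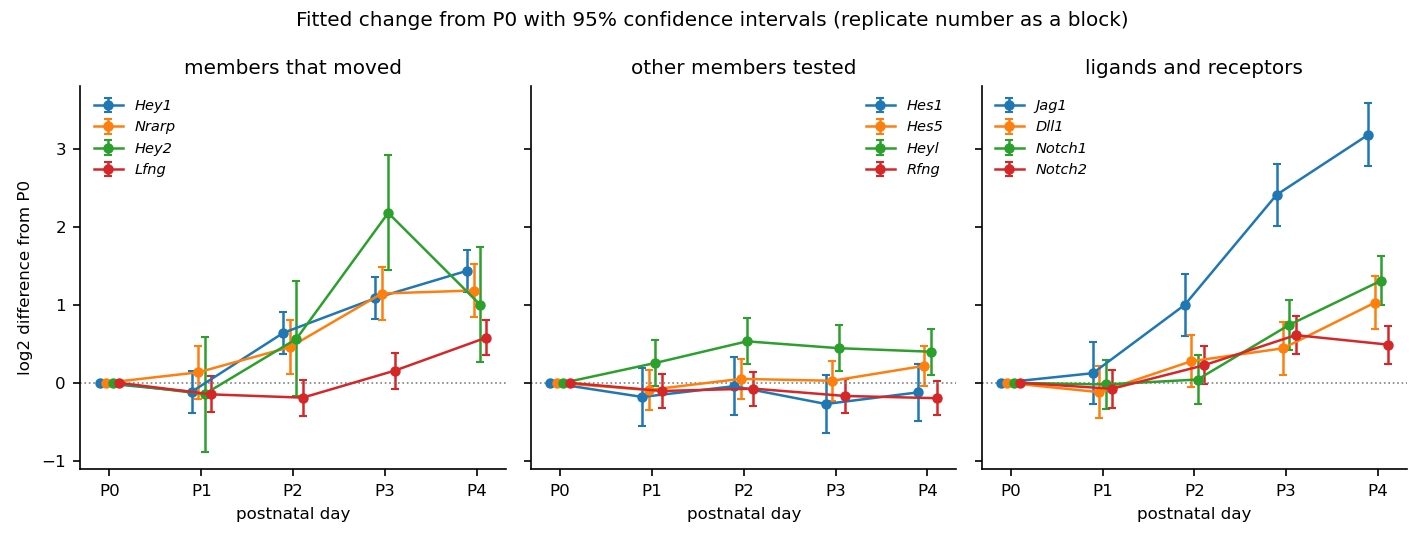
Fitted log2 difference from P0 (vertical axis) with 95% confidence intervals against postnatal day (horizontal axis), from the fit with the replicate number as a block and 3 pools a day, for *Hey1*, *Nrarp*, *Hey2* and *Lfng* (left), *Hes1*, *Hes5*, *Heyl* and *Rfng* (middle), and ligands and receptors of the pathway (right). *Jag1* stands at 3.19 at P4, *Hey2* at 2.18 at P3 and 1.00 at P4, and *Hes1*, *Hes5* and *Rfng* stay between -0.27 and 0.22.

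*Hes1* and *Hes5* passed in none of the comparisons, without a block or with one, and whether their course differed from that of the *Hey* genes was not tested. *Hes1*, a target used in most tissues, ranged from 7.32 to 8.28 over the 15 pools with a median of 7.95, and its day means lay between 7.67 and 7.94. *Hes5*, a target known best from neural progenitors, had a narrower range of 7.83 to 8.42 with day means of 7.99 to 8.30. All 3 *Hes5* values at P4 (8.38, 8.10 and 8.42) lay above the P0 pool of the same number, but the P0 and P4 pools overlapped. The difference of *Hes5* from P0 at P4 was 0.22 (95% interval -0.07 to 0.50, adjusted p = 0.56). For *Hes1* it was -0.12 (95% interval -0.73 to 0.49).

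*Heyl*, the third *Hey* gene, shared the low first pools of *Hey1*. It read 6.81, 8.01 and 8.11 at P0 in replicates 1, 2 and 3, then 7.42, 8.21 and 8.06 at P1. It read 7.67, 8.66 and 8.19 at P2, 7.66, 8.36 and 8.25 at P3, and 7.56, 8.43 and 8.13 at P4. Pools of all 5 days overlapped, and the day means were highest at P2 (8.17) and lowest at P0 (7.64). Each P2, P3 and P4 pool lay above the P0 pool of the same number. In replicate 1 the P2 pool stood 0.87 above P0, in replicate 2 0.66 and in replicate 3 0.07. The difference from P0 at P2 was 0.53 (adjusted p = 1.00, and 0.14 with the replicate block).

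Of the Fringe genes besides *Lfng*, *Rfng* lay between 7.09 and 7.71 in all pools and its day means fell in a band from 7.34 to 7.54. Its P4 pools (7.18, 7.32 and 7.53) were each lower than the P0 pool of the same number (7.36, 7.55 and 7.71). The difference was -0.20 (95% interval -0.55 to 0.16, adjusted p = 0.74, and 0.27 with the replicate block). *Mfng* lay between 5.93 and 6.70, below the median of all values in every array. In a fit with no filter its P4 difference from the earlier days was 0.16 (adjusted p = 0.92).

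Within the days labelled cap mesenchyme, a straight line over P0 to P3 asked whether a gene drifted before P4. Of the 8 genes 2 passed (background 3.13%), *Nrarp* at 0.38 log2 units a day (SE 0.07, adjusted p = 0.012) and *Hey2* at 0.73 a day (SE 0.17, adjusted p = 0.028). With the replicate block 4 of 8 passed (background 8.49%), the others being *Hey1* at 0.40 a day (adjusted p = 1.9e-05) and *Heyl* at 0.16 a day (adjusted p = 0.032). The unblocked call of *Nrarp* ended only without P3 replicate 3 (adjusted p = 0.050), and that of *Hey2* without any P0 pool or P3 replicate 2 or 3 (up to 0.087). The blocked call of *Heyl* was lost without 6 pools, replicates 1 and 2 of P0 and P2 and replicates 1 and 3 of P3 (up to 0.16), and within replicates 2 and 3 its slope was 0.10 (adjusted p = 0.43). The blocked calls of *Hey1*, *Hey2* and *Nrarp* held in all 15 fits. With no filter on low values *Nrarp* and *Hey2* passed, 2 of 9 (background 1.63%). Since both had entered the filtered tests through days on which they were high, the counts of 8 are given only as a description. *Lfng* had a slope of 0.04 a day (95% interval -0.09 to 0.17).

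The second question was how the P4 pools, labelled renal vesicle, differed from the mean of the 4 cap mesenchyme days. *Lfng* and *Nrarp* passed, which was 2 of 8 (background 5.73%). Since both entered the tests through arrays in which they were high, this count is given only as a description. With no filter on low values the same genes passed, at adjusted p = 0.029 for *Lfng* and 0.033 for *Nrarp*, 2 of 9 (background 3.48%). With the first pools as a block *Hey1* passed as well, 3 of 8 (background 11.5%). *Lfng* was 1.54-fold higher (log2 difference 0.63, SE 0.15, adjusted p = 0.021, and 7.7e-05 with the block). *Nrarp* was 1.68-fold higher (0.75, SE 0.18, adjusted p = 0.024, and 7.3e-04 with the block). Both unblocked calls ended without P4 replicate 2 or 3, at adjusted p up to 0.17 for *Lfng* and 0.22 for *Nrarp*. That of *Lfng* ended too with arrays centred on the median (0.052) and with quantile normalization (0.070). *Hey1* differed by 1.04 (SE 0.31, adjusted p = 0.071, 3.8e-06 with the block, and 0.026 with quantile normalization). All 3 blocked calls held in the 15 fits that leave out 1 pool. The filter stayed as set on all 15 arrays, so *Lfng* was still tested without an array it had passed through.

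Of the P4 pools, 2 of 3 lay above all 12 earlier pools in *Lfng*, 2 of 3 in *Hey1*, 2 of 3 in *Hes5* and 1 of 3 in *Nrarp*. *Hey2* differed by 0.35 (95% interval -0.53 to 1.24). Each of its P3 pools was higher than the P4 pool of the same number, though the pools of the 2 days overlapped. *Hes5* differed by 0.22 (95% interval -0.00345 to 0.45, adjusted p = 0.36), *Heyl* by 0.09 (-0.52 to 0.70), *Hes1* by 0.00 (-0.48 to 0.48) and *Rfng* by -0.11 (-0.39 to 0.17). The median over the 8 genes was 0.29, beside 0.00 over all genes tested. It includes genes that entered through days on which they were high and is only a description. An F test over the 5 days passed in *Nrarp* (adjusted p = 0.0077), 1 of 8 (background 5.37%). With the first pools as a block it also passed in *Hey1* (1.8e-06), *Lfng* (4.7e-04) and *Hey2* (0.0011), 4 of 8 (background 11.7%). *Nrarp*, *Hey2* and *Lfng* entered through days on which they were high, so these counts too are only a description. With no filter and no block *Nrarp* alone passed the F test (adjusted p = 0.011).

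**Figure D4:**
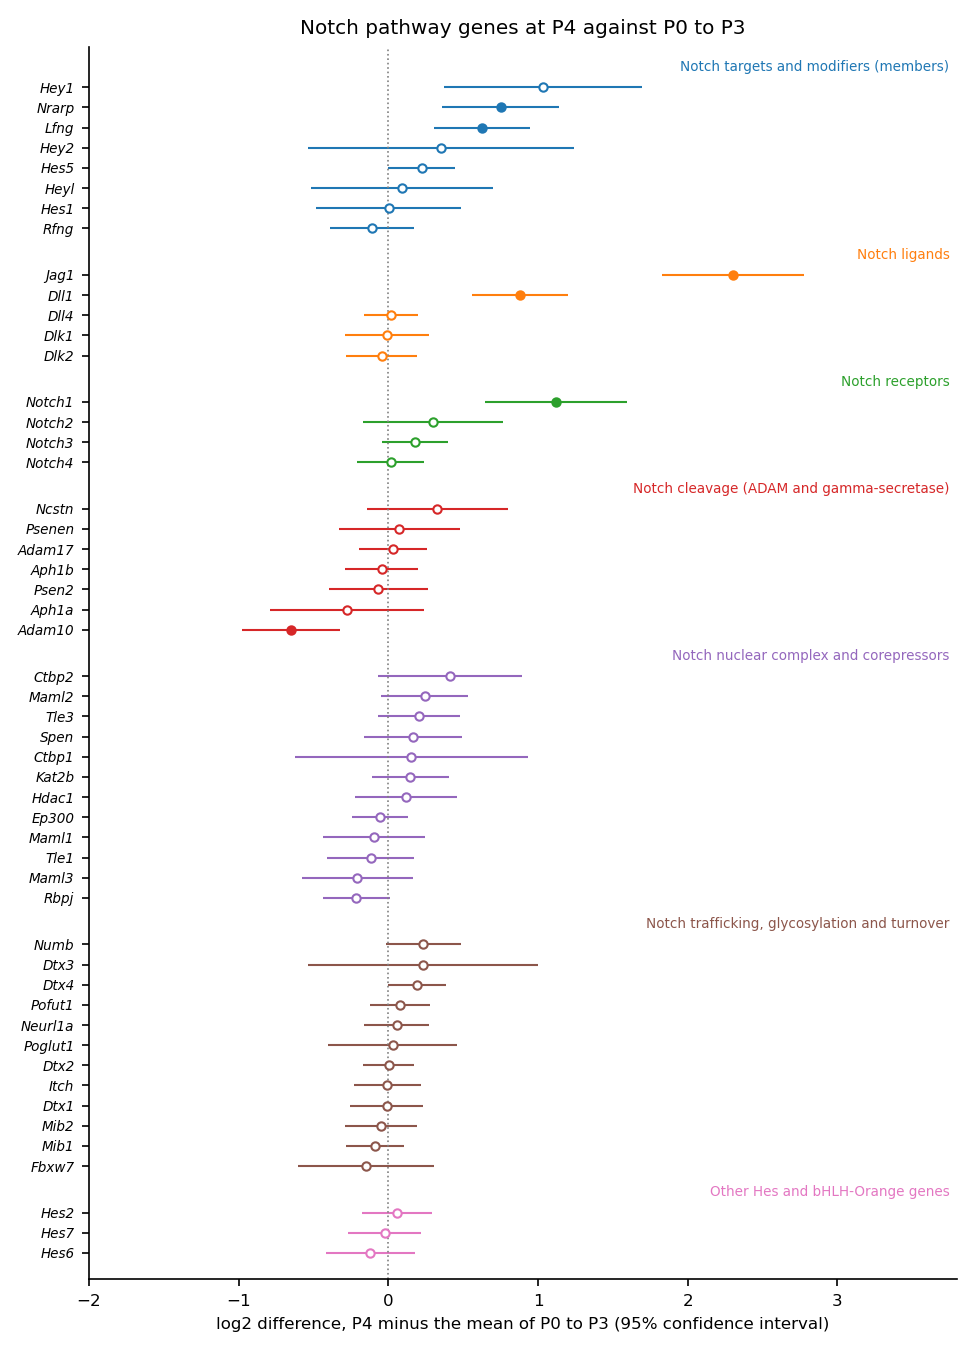
Log2 difference of P4 (3 pools) from the mean of the P0 to P3 day means (horizontal axis) with 95% confidence intervals for each Notch pathway gene tested (vertical axis), grouped by role. Filled points passed at a limma adjusted p under 0.05 without a block, and among them *Jag1* (2.30) is highest and *Adam10* (-0.65) the only one below 0.

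The rest of the pathway was followed through 53 listed genes, of which 51 were measured and 43 passed the filter. In P4 against the earlier days 3 of the 43 were higher and 1 was lower, or 9.3% (background 5.73%). With the first pools as a block 5 were higher and 1 lower, or 14% (background 11.5%). Their median difference was 0.03, beside 0.00 over all genes. Among 5 ligands tested, *Jag1*, whose protein presents to Notch on the neighbouring cell, rose by the most of the pathway. Its values were 6.81, 7.49 and 7.60 at P0, 7.11, 7.38 and 7.77 at P1, 7.87, 8.89 and 8.14 at P2, 9.53, 10.12 and 9.50 at P3, and 10.35, 10.75 and 10.36 at P4. Every P2 pool lay above every P0 and P1 pool, every P3 pool above every P2 pool, and every P4 pool above every P3 pool. *Jag1* was 4.93-fold higher at P4 than before (log2 difference 2.30, adjusted p = 1.2e-05) and already 5.33-fold higher at P3 than at P0 (2.41, adjusted p = 3.8e-04). At P2 it stood 1.00 above P0 (adjusted p = 0.65, and 0.034 with the replicate block).

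The other ligand to pass was *Dll1*, at 1.84-fold (0.88, adjusted p = 0.0018). Its day means were 6.93, 6.81, 7.21, 7.37 and 7.96 from P0 to P4 (SD 0.04 to 0.35, n = 3), and it passed against P0 only at P4 (1.03, adjusted p = 0.0037), with the block and without. *Dll4*, *Dlk1* and *Dlk2* did not pass, and *Dll3*, *Jag2* and *Dner* fell under the filter. *Jag1* and *Dll1* also stand in the list of renal vesicle markers, so the lists are not separate. Of the 4 receptors *Notch1* was 2.17-fold higher at P4 (1.12, adjusted p = 0.0059), but not without P4 replicate 2 or 3 (up to 0.072). Its day means were 7.61, 7.59, 7.66, 8.36 and 8.93 (SD 0.07 to 0.59). With the replicate block *Notch1* passed against P0 from P3 on (0.74, adjusted p = 0.0066), and so did *Notch2* (0.61, adjusted p = 0.0042), whose day means of 8.97, 8.90, 9.20, 9.59 and 9.47 (SD 0.24 to 0.48) were highest at P3.

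Behind the receptors, *Adam10*, the protease that makes the first cut of a ligand-bound receptor, was 1.57-fold lower at P4 (-0.65, adjusted p = 0.018, lost without P4 replicate 1 or 3, up to 0.17). Its day means were 9.97, 9.86, 9.72, 9.10 and 9.01 (SD 0.10 to 0.41), and at P3 it was already lower than at P0 (-0.87, adjusted p = 0.029, lost without any P0 pool or P3 replicate 3, up to 0.11). The other 6 genes of this cleavage group did not pass. *Rbpj*, the DNA-binding partner of Notch, had day means of 9.55, 9.49, 9.46, 9.85 and 9.37 (SD 0.06 to 0.27), and its P4 difference of -0.21 did not pass (adjusted p = 0.38). None of the 12 nuclear complex and corepressor genes, the 12 trafficking, glycosylation and turnover genes or the 3 further *Hes* family genes passed in this contrast. With the first pools as a block the corepressor gene *Ctbp2* did, at 0.41 (adjusted p = 0.0014), as did *Notch2* at 0.30 (adjusted p = 0.039). Over P0 to P3 the slope passed in 2 of the 43, or 4.65% (background 3.13%), *Jag1* upward (0.81 a day, adjusted p = 1.9e-04) and *Adam10* downward (-0.28 a day, adjusted p = 0.024). Blocking by replicate number gave 4 higher and 1 lower, or 11.6% (background 8.49%), and *Notch2* (0.21 a day, adjusted p = 0.0017), *Notch1* (0.23 a day, 0.0062) and *Dll1* (0.17 a day, 0.045) were the additional genes.

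Genes whose course was most like that of a member were ranked over the 15 arrays by Pearson's r, after the mean of the first pools and the mean of the other pools had been taken off. The arrays share their days and sets, so that r describes a likeness and no test was made. Clone, Gm, LOC, Rik and accession names were left out of the closest genes, while the ranks count all 11884 genes. For *Nrarp* the closest were *Pmp22* (r = 0.97), *Nid2* (0.97) and *Greb1* (0.96). Among the other genes that passed the F test with the block, *Hey1* was closest to *Fjx1* (0.97), *Lamb1* (0.97) and *Cnksr2* (0.96), and *Jag1* had rank 6 of 11884 genes (0.96). *Hey2* was closest to *Bcat2* (0.96), *Cenpl* (0.95) and *Cdh4* (0.94), with *Notch2* at rank 44 (0.87). P3 replicate 3, where *Hey2* was by far highest (9.73), weighs on these values, and r without it was not computed. *Lfng* was closest to *Cgnl1* (0.94), *Pitpnc1* (0.94) and *Cryz* (0.94), with *Notch1* at rank 35 (0.88). Between members r was 0.86 for *Nrarp* and *Hey1*, 0.79 for *Nrarp* and *Hey2*, 0.69 for *Hey1* and *Hey2*, and 0.48 for *Hey2* and *Lfng*.

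*Hey1*, *Hey2*, *Heyl* and *Nrarp* are also used by endothelial and mural cells, so the markers of these cells were set beside them. Of 12 endothelial markers 10 lay below the median of all values in every array, *Pecam1*, *Cdh5*, *Kdr* and *Tek* among them. The mean over all 12 was 6.26 to 6.50 in the pools of P0 to P3 and 6.57 to 6.63 in those of P4. *Cldn5*, a tight junction gene in that list, was 2.94-fold higher at P4 (adjusted p = 0.0023) and *Egfl7* differed by 0.07. The mean over 8 mural and smooth muscle markers was 7.03 to 7.45 and 7.26 to 7.34, and 1 of the 8 passed, *Tagln* at 0.44 (adjusted p = 0.033, lost without any of 5 pools, P1 replicate 2, P2 replicates 2 and 3 and P4 replicates 2 and 3, up to 0.27). The part of such cells in the values of the Notch targets was not tested.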

How the data were processed

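Total RNA of 15 sorted pools went through 1 round of amplification with the WT-Ovation Pico system. It was then measured as biotin-labelled cDNA on single-colour Affymetrix whole-transcript arrays. Per the labels, the authors made the deposited table with Affymetrix Expression Console, whose version, summarization and background correction are not stated in the labels. Judged by their range (2.38 to 13.76), the deposited values are log2 values, and they were used as they stand. Dim genes may still hold background, which would shrink their differences, and levels of different probe sets are not comparable.

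Of 35557 probe sets, 21789 had 1 symbol in the platform annotation, 1621 had several and 12147 had none. Where 999 genes had several probe sets, that with the highest mean was used. Groups came from the day in the labels. A mean for each day was fitted over all 15 arrays with limma 3.58.1 (lmFit and eBayes, R 4.3.3), two-sided, with Benjamini-Hochberg adjustment over the 11885 genes kept and a threshold of 0.05. The fit without a block was tested on simulated data with independent errors between arrays. These data lacked the offset of the first pools, so the test cannot show how the fits behave with it. The members, lists, contrasts and rules were chosen with earlier results of these data known. Pathway genes were named where they passed in P4 against P0 to P3 or in the F test. Lookalikes were the 3 genes of highest r for members that passed the F test, leaving out clone, Gm, LOC, Rik and accession names. Giving lookalikes for *Hey1*, *Hey2* and *Lfng*, and naming *Rbpj*, *Ctbp2*, *Notch2* and unchanged ligands, were choices made after their values were seen.

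Sample titles gave the replicate numbers, and a title without one was taken as replicate 1. Deviations of same-numbered pools from their day means correlated above 0.1 in 29 of 30 pairs of pools. The exception was replicate 3 of P1 with P4 (0.0782), days that no contrast sets against each other alone, and the lowest of the 27 pairs of pools from the other days was 0.138. These values were 0.58 to 0.80 for replicate 1. With 3 pools centred on their day mean, first pools that stand apart give replicates 2 and 3 a shared deviation whatever their number. Pools with different numbers were not compared, so the check cannot show that replicates 2 and 3 are matched across days. The replicate number served as a block for the contrasts of pairs of days and the slope. Alternatives were both blocks, replicates 2 and 3 alone, quantile normalization, centring, no filter, a stricter filter (mean at least 1 log2 unit above the median), a moderated fit with trend, only the days compared, and leaving out each pool. Another probe set per member was not run, since each has 1. The number of arrays limits the precision.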

Additional observations from a re-analysis of the deposited data

How the results depend on the processing

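Of the values for single genes given under alternative settings, 973 kept direction and side of the threshold, 85 were no longer past it, 40 newly passed and 14 changed sign. This tally joins unblocked results with blocked ones added after the data were seen. Many results had not passed to begin with, so keeping their side says little. On leaving out 1 pool, the unblocked call of *Hey2* in P3 against P0 held in 3 of 15 fits. That of *Hey1* in P4 against P0 held in 4 of 15, and that of *Nrarp* in all 15. Counts of the 8 genes changed as follows. For P4 against P0 to P3 the count of 2 became 3 with either block or within replicates 2 and 3, 1 with arrays centred on the median (*Lfng* at adjusted p = 0.052), 0 with the stricter filter, which kept 3 of the genes, and 4 with the first pools as a block and no P3 replicate 3. Quantile normalization kept it at 2, with *Hey1* (0.026) in place of *Lfng* (0.070). Leaving out 1 pool gave 0 to 2. For P3 against P0 the count of 2 became 3 with either block, with or without P3 replicate 3, or within replicates 2 and 3, 1 (*Nrarp*) with quantile normalization, centring or no filter, 0 with the stricter filter or only the days compared, and 0 to 2 on leaving out a pool. Of all genes 259 passed in the main fit, 770 with the replicate block, 337 within replicates 2 and 3, 183 with centring and 65 with only the days compared. For P4 against P0 the count of 2 became 3 with either block or only the days compared, 1 (*Nrarp*, without *Hey1*) with centring or no filter, 0 with the stricter filter, 4 with the block and no P3 replicate 3, and 1 to 2 without a pool. Of all genes 669 passed in the main fit, 1323 with the replicate block, 488 with only the days compared and 549 with centring. With the first pools as a block and no P3 replicate 3 it was 1689. For the slope the count of 2 became 4 with either block, with or without P3 replicate 3, 3 with quantile normalization or within replicates 2 and 3, 0 with the stricter filter, 1 with only the days compared, and 0 to 3 without a pool. Of all genes 372 passed in the main fit, 1009 with the replicate block, 488 with quantile normalization and 309 with only the days compared. For the F test the count of 1 became 4 with either block, with or without P3 replicate 3, 3 within replicates 2 and 3, 2 with quantile normalization, 0 with the stricter filter, and 1 to 3 without a pool. Of all genes 638 passed in the main fit, 1483 with the replicate block, 643 within replicates 2 and 3 and 799 with quantile normalization.

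For P2 against P0, P2 against P1, P4 against P3 and the bend the count of 0 became 1 with the replicate block, with the first pools as a block, and with that block and no P3 replicate 3. For P3 against P2 it became 1, 2 and 1 in these settings, the second by *Nrarp* (adjusted p = 0.049). For P1 against P0 it was 0 in every setting run. Leaving out a pool kept these 0 counts. With the replicate block the number of all genes called rose from 4 to 52 for P2 against P0 and from 10 to 114 for P2 against P1. For P3 against P2 it rose from 17 to 144 (146 with the first pools as a block), and for P4 against P3 from 177 to 422. *Hes1* in P4 against P0 to P3 turned from 0.00 to -0.00279 with centring and ran from -0.16 to 0.25 without a pool. *Heyl* in that contrast ran from -0.10 to 0.33, and *Nrarp* in P4 against P3 from -0.20 to 0.31. None of these 3 passed in any setting run. The replicate block raised the number of all genes called from 681 to 1435 for P4 against P0 to P3, where the count of the 8 genes was 3, and from 99 to 292 for the bend and 638 to 1483 for the F test. Beyond the calls given here and in the results, the replicate block changed no call of the 8 genes. The cause of these changes was not tested, except that the stricter filter and the fits of fewer days or pools use fewer genes or arrays.

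With 3 pools a day, a block that takes up the low first pools narrowed the interval of *Hey1* in P4 against P0 from 0.60 to 2.28 to 1.17 to 1.71. *Nrarp*, *Hey2* and *Lfng* stood near or below the median of all values on the early days, where background weighs most. The median of all genes in P4 against P0 to P3 moved from 0.00 to 0.02 with quantile normalization and to -0.02 with the stricter filter.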

Other observations

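Other marker lists also held genes that differed at P4 from the earlier days (background 5.73% of all genes tested). Among proximal tubule genes 2 of 5 tested were higher, the endocytic receptor *Lrp2* by 0.65 on the log2 scale (limma adjusted p = 7.9e-04) and the organic anion transporter *Slc22a6* by 0.45 (adjusted p = 0.025). Their mean over 6 genes was 6.68 to 6.94 before P4 and 7.04 to 7.20 at P4. Of 5 ureteric bud genes tested *Gata3* was higher by 1.88 (adjusted p = 3.9e-06) and *Krt8* by 0.67 (adjusted p = 0.011), while *Ret* and *Wnt11* were above the median of all values in no array. *Podxl*, the only podocyte gene tested, was higher by 0.61 (adjusted p = 0.017). Of 7 stroma genes *Foxd1*, *Meis1* and *Meis2* were lower, by -0.74, -0.78 and -1.38 (adjusted p = 0.0051, 0.0027 and 2.1e-06). Over the 7 genes the mean value fell before P4, from 8.90 at P0 to 8.26 at P3, and was 8.20 at P4. It was 8.14 to 8.97 in the pools before P4 and 8.11 to 8.25 in those of P4. Of 6 macrophage genes 4 were never above the median of all values, and neither the macrophage gene tested (*Cd68*) nor the 2 erythroid genes tested passed. The part of such cells in the Notch target values was not tested.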
